A study of Mus musculus with 6 samples.

Results

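The genes Adora2a, Adora3, Adrb1 and Drd4 encode receptors for adenosine, for adrenaline and noradrenaline, and for dopamine. They were chosen by name, and were 4 of the 445 genes with antisense probes on a custom array of 60-base oligonucleotides. Each gene had 1 probe for the sense strand and 3 or 4 probes for the opposite strand, 17 probes in all. The study calls those for the opposite strand artificial antisense sequence (AFAS) probes, and they are called antisense probes here. Arrays of 4 mammary tumors were compared with those of 2 normal glands, all from GRS/A mice, an inbred strain prone to mammary tumors induced by mouse mammary tumor virus. No sample carried another allele or treatment in its labels. Age was not given, nor whether each array came from a separate animal, so p-values measure only the spread between these samples. The extraction protocol in the labels names brain for all samples, whereas the titles and the methods of the study name mammary tissue, and the titles were followed.

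All 4 genes belong to the G protein-coupled receptors, proteins that cross the membrane and pass a signal to G proteins inside the cell. Adora2a and Adrb1 act mainly through the stimulatory G protein, which raises cyclic AMP, and Adora3 and Drd4 mainly through inhibitory G proteins, which lower it. Adenosine builds up outside cells in poorly oxygenated tissue, Adora2a is known for restraining lymphocytes, and Adora3 is known from mast cells. Adrb1 is the main adrenergic receptor of heart muscle, and Drd4 is best known from the brain and retina.

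Labeled cDNA was made from total RNA with random primers, so that a sense probe binds cDNA copied from the messenger RNA and an antisense probe binds cDNA copied from RNA of the opposite strand. The stretches printed first are where the sense probe and antisense probe 1 of Adora3 read opposite strands of the same site, since the results on this gene turn on them. The probes were complementary over 52 bases, of which the 30 bases at positions 12 to 41 of both probes are given, all in capitals because all of them pair.
Adora3 sense: CTTCGCATGTGGTATCAGTAAACACTATAA
Adora3 antisense 1: TTATAGTGTTTACTGATACCACATGCGAAG

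Antisense probe 2 of Adora3 lay elsewhere in the transcript and shared no long stretch with either of them.
Adora3 antisense 2: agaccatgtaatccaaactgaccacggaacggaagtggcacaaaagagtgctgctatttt

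The antisense probes of Drd4 are shown because the results below set them against one another. Antisense probe 3 alone among the 17 probes matched the RefSeq promoter window of its gene. Of its bases, 50 were complementary to the 50 bases after the start site of that window, chr7:141292018-141292067 in GRCm38.p6, and the probe reads the minus strand of this plus-strand gene there. The gene table begins Drd4 upstream of this start site. The capitals in it mark the complement of an ATG.
Drd4 antisense 3: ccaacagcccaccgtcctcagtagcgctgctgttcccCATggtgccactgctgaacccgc
Drd4 antisense 2: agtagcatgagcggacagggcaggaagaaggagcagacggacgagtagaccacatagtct
Drd4 antisense 1, positions 1 to 30: tcccaacccccagccttcataagtggttag

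In GRCm38.p6, the assembly of the gene table used here, Drd4 lies on chromosome 7 from 141291974 to 141296464 and Adora3 on chromosome 3 from 105904421 to 105908928. Adora2a lies on chromosome 10 from 75316877 to 75334792 and Adrb1 on chromosome 19 from 56722117 to 56725150. Per the methods, antisense probes were placed on the complement of exons, and the exon or untranslated region under each probe was not analysed here. The sense and antisense probes of Adora2a were complementary over 58 bases at antisense probe 2, and the probes of Adrb1 and Drd4 shared no such site between strands. The sense probes of Adora2a and Adora3 carried the accession of the gene. Those of Adrb1 and Drd4 carried another accession and were linked to the gene by their place next to its antisense probes, so their identity is less sure, above all for Adrb1, whose linked probe was made to a RIKEN clone.

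Signals are in arbitrary units, and the authors set values below 5 or not significantly above background to 5, the floor. The share of the 2153 probes at the floor was 0.790% in tumor 1, between 11.6% and 12.8% in tumors 2 to 4, and 24.3% in normal gland 1 and 31.03% in normal gland 2. Over all probes the median log2 difference between tumors and normal glands was 0.50, so every difference below is to be read against a general shift toward the tumors. It was 0.91 for sense and 0.44 for antisense probes. Of the 17 receptor probes, 11 were well above background on every tumor array, and none was saturated. Drd4 antisense probe 1 was marked as a non-uniform spot on 1 tumor array. Probes can differ in binding, so a ratio of probes is compared only between arrays, and the brightest probe of a list does not rank its transcripts.

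**Figure D1:**
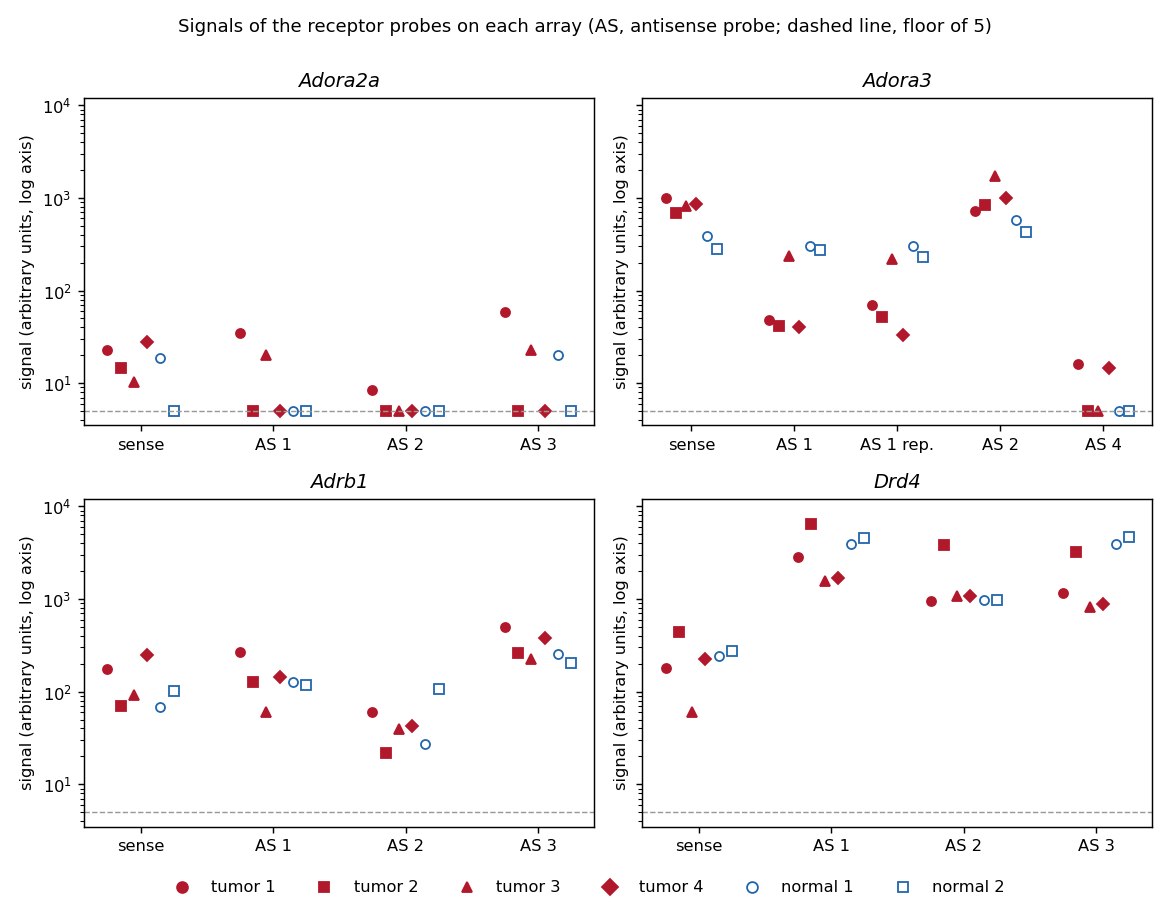
Signal of each receptor probe (log axis, arbitrary units) on the 4 tumor arrays (filled red symbols) and the 2 normal arrays (open blue symbols), with 1 panel per gene; AS stands for an antisense probe, AS 1 rep. for a second spot of the same sequence, and the dashed line for the floor of 5. The 4 tumors lay above both normal glands at the Adora3 sense probe and below both at Adora3 antisense 1 and Drd4 antisense 3, whereas most Adora2a signals lay near the floor.

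None of the 4 sense probes and none of the 13 antisense probes of the receptors passed an adjusted p of 0.05 (limma, two-sided, Benjamini-Hochberg over all probes of a strand). Over the whole array 14.6% of the sense probes and 0.457% of the antisense probes passed. At an unadjusted p of 0.05, 1 of the 4 sense probes passed, the one of Adora3, against 38.4% of all sense probes. On the antisense strand 2 of 13 passed unadjusted, Adora3 antisense 1 and Drd4 antisense 3, both lower in the tumors, against 16.2% of all antisense probes in either direction and 3.26% in this one. The median log2 difference of the receptor probes was 0.75 on the sense strand and 0.19 on the antisense strand.

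**Figure D2:**
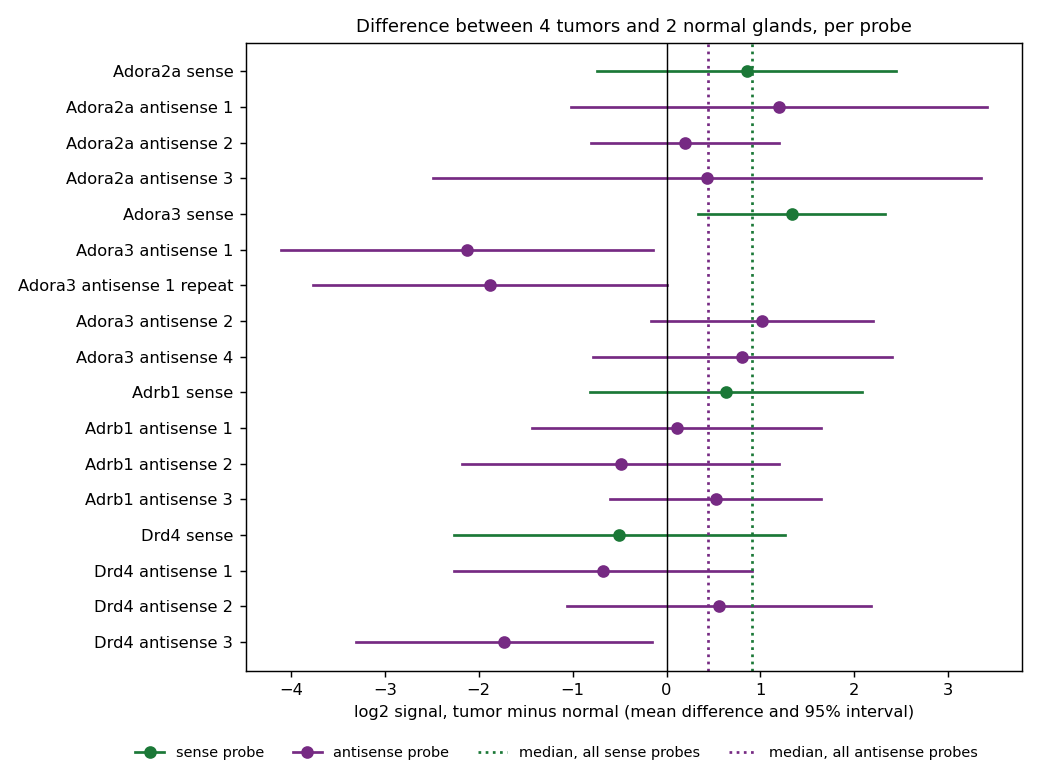
Log2 difference between the mean of 4 tumors and the mean of 2 normal glands for each of the 17 receptor probes, with 95% intervals from limma as horizontal lines; dotted lines mark the medians of all sense probes (0.91) and all antisense probes (0.44). The intervals of Adora3 sense, Adora3 antisense 1 and Drd4 antisense 3 left out 0, none after adjustment over the array.

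The sense transcript of Adora3, the A3 adenosine receptor, was brighter in every tumor than in either normal gland. Its signal was 1005, 688, 824 and 858 in tumors 1 to 4, and 388 and 283 in normal glands 1 and 2. The groups did not overlap, which held in the same direction for 42.6% of all sense probes. The mean was 844 ± 130 (SD, n = 4) in the tumors and 336 ± 74.6 (SD, n = 2) in the normal glands. The log2 difference was 1.33 (SE 0.43), 0.42 above the median of all sense probes, with an adjusted p of 0.0672 in limma. An exact two-sided permutation test gave p = 0.0667, the smallest that the 15 splits of 6 arrays allow. With a floor of 20 in place of 5 its adjusted p in limma was 0.0449, and over the other limma settings it ranged up to 0.458.

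The antisense signal at the same site of Adora3 stood the other way. Antisense probe 1 read 48.3, 41.7, 238 and 40.0 in tumors 1 to 4, against 306 and 273 in the normal glands. Tumors 1, 2 and 4 lay together far below the normal glands, and tumor 3 lay just under them. The log2 difference was −2.13 (SE 0.82), with an adjusted p of 0.266 in limma and p = 0.0667 in the exact permutation test. A second spot with the same 60 bases read 69.7, 52.3, 218 and 33.1 in the tumors and 303 and 229 in the normal glands. This repeat gave a log2 difference of −1.88 (SE 0.78) with an adjusted p of 0.309 in limma and p = 0.133 in the exact permutation test, and tumor 3 was again the brightest tumor. The spots differed by at most 0.53 on the log2 scale on any array. With 1 array left out, the log2 difference of antisense probe 1 lay between −2.74, without tumor 3, and −1.88, with adjusted p-values in limma from 0.0557, without tumor 3, to 0.888, without normal gland 2.

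The other antisense probes of Adora3 did not share this order. Antisense probe 2 read 722, 838, 1741 and 996 in the tumors and 583 and 429 in the normal glands, so all tumors lay above both normal glands, as 21.6% of all antisense probes did. Its log2 difference was 1.02 (SE 0.49), with an adjusted p of 0.361 in limma. Antisense probe 4 was at the floor on 4 of the 6 arrays and read 16.2 in tumor 1 and 14.6 in tumor 4. Tumor 3 was thus the brightest tumor at antisense probes 1 and 2, but not at antisense probe 4 or the sense probe.

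Whether the strands differed in their change was tested on the log2 ratio of the antisense to the sense signal within each array, which no scaling by 1 factor per array can alter. At the complementary site of Adora3 the antisense signal was 4.81%, 6.06%, 28.9% and 4.66% of the sense signal in tumors 1 to 4, and 78.7% and 96.4% in the normal glands. The tumors lay below both normal glands, as was the case at 25.5% of all probes tested. On the log2 scale the ratio was lower in the tumors by a difference of −3.46 (95% interval −5.52 to −1.40), with an adjusted p of 0.0570 over 1585 antisense probes in limma and p = 0.0667 in the exact permutation test. The repeat spot gave −3.21, with an adjusted p of 0.0610 in limma. Over all probes tested the median of this difference was −0.42. None of the 13 receptor antisense probes passed this test, against 3.47% of all probes tested. The adjusted p of antisense probe 1 in limma was 0.138, 0.0657, 0.0404 and 0.125 without tumors 1, 2, 3 and 4 in turn, and 0.221 and 0.463 without normal glands 1 and 2. Both spots thus passed when tumor 3, the tumor nearest to the normal glands, was left out, where 51 of 1585 probes did, and when no other array was. They also passed with a filter on signals, at 0.0419 and 0.0452, where 96 of 748 probes did. With the replicate number as a block the adjusted p-values in limma were 0.0115 and 0.0352, where 114 of 1585 probes passed. No normal gland had number 3 or 4, so this fit compared only tumors 1 and 2 with the normal glands, and tumor 3 did not enter. Whether these numbers pair the samples is not known. Neither spot passed with a floor of 20, at 0.0799 and 0.0806.

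**Figure D3:**
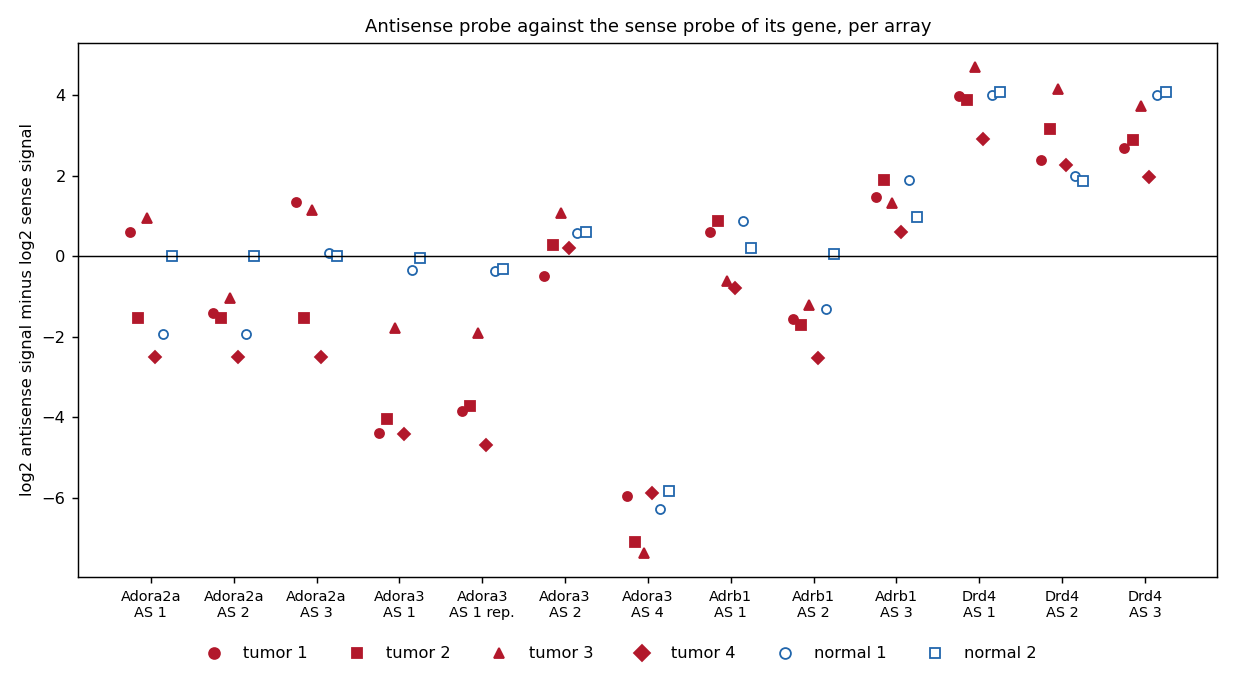
Log2 antisense signal minus log2 sense signal of the same gene on each array, for the 13 receptor antisense probes; filled red symbols are tumors and open blue symbols normal glands. At both spots of Adora3 antisense 1 the normal glands lay between −0.36 and −0.05 and the tumors between −4.69 and −1.79, with tumor 3 the highest of the tumors. The height of 0 has no meaning of its own, since probes differ in binding.

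Within Adora3, antisense probe 1 was also set against the mean of the antisense probes at other sites. The log2 difference of this ratio between tumors and normal glands was −3.04 (SE 0.85), with an adjusted p of 0.0893 in limma over 1728 probes, and for antisense probe 2 it was 1.55 (SE 0.68), with an adjusted p of 0.265. The mean for antisense probe 1 was over probes 2 and 4, and the mean for antisense probe 2 over probe 4 and the repeat spot, so these values are not separate results, and probe 4 was well above background on no tumor array. With a floor of 20 the difference of antisense probe 1 was −2.63, with an adjusted p of 0.158. For both probes the exact permutation test gave p = 0.0667, with no overlap between the groups, which held in each direction for 14.8% of all probes tested. None of the receptor probes passed this test, whereas 1.16% of all probes did. Antisense probe 1 passed at an adjusted p of 0.0475 in limma without tumor 3, where 10 of 1728 probes did, and not without any other array, where the adjusted p lay between 0.0887 and 0.526, nor with the replicate block, at 0.282.

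Drd4, the D4 dopamine receptor, had antisense signals of 810 or more on every array, and its antisense probes ranked the tumors and normal glands differently from one another, although none passed the tests between groups in limma. Drd4 is a gene that the study itself picked out from these arrays, so its values are not independent evidence. Antisense probe 3 was the one matched to bases just after the start site. It read 1158, 3213, 810 and 874 in tumors 1 to 4 and 3874 and 4614 in the normal glands. Every tumor lay below both normal glands, as was the case for 6.92% of all antisense probes. The log2 difference was −1.73 (SE 0.65), with an adjusted p of 0.266 in limma. The exact permutation test gave p = 0.133.

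Antisense probe 2 of Drd4 read 944, 3870, 1073 and 1076 in the tumors and 964 and 986 in the normal glands. Apart from tumor 2 the arrays were close together, and the log2 difference was 0.56 (SE 0.67), with an adjusted p of 0.722 in limma. Without tumor 2 the log2 difference was 0.079. Antisense probe 1 read 2871, 6368, 1578 and 1677 in the tumors and 3907 and 4549 in the normal glands. Here tumor 2 was above and the other tumors were below the normal glands, and the log2 difference was −0.68 (SE 0.66), with an adjusted p of 0.648. The sense probe linked to Drd4 read 181, 436, 60.7 and 224 in the tumors and 242 and 271 in the normal glands. Its log2 difference was −0.50 (SE 0.76), with an adjusted p of 0.687, and the groups overlapped.

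Tumor 2 had the highest tumor signal at all 4 probes of Drd4. Its ratio to the mean of the other tumors was 3.12 at antisense probe 1, 3.75 at antisense probe 2, 3.39 at antisense probe 3 and 2.81 at the sense probe. Over all probes of the array the log2 signal of tumor 2 minus the mean of the other tumors had a median of −0.15, and it was at least 1 at 18.3% of them. With 1 array left out, the log2 difference of antisense probe 3 lay between −2.18, without tumor 2, and −1.51, with adjusted p-values in limma from 0.0972, without tumor 2, to 0.894, without normal gland 2. With the replicate block, in which tumors 3 and 4 did not enter, it was −1.13. Over all probes tumor 2 was also nearer to the normal glands than the other tumors were, with Spearman correlations of 0.931 and 0.913 with normal glands 1 and 2, against values from 0.838 to 0.871 for tumors 1, 3 and 4, and of 0.896, 0.868 and 0.922 with tumors 1, 3 and 4.

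The ratio of antisense probe 3 to antisense probe 1 was 0.403, 0.505, 0.513 and 0.521 in tumors 1 to 4, and 0.992 and 1.01 in the normal glands. The tumors were thus close to one another in this ratio, tumor 2 included, and well apart from the normal glands. The ratio of antisense probe 2 to antisense probe 1 was 0.329, 0.608, 0.680 and 0.642 in the tumors and 0.247 and 0.217 in the normal glands. These pairs of probes were chosen after their values were seen, and the ratios are a description. Set against the mean of the other antisense probes of Drd4, antisense probe 3 had a log2 value of −0.61 ± 0.07 (SD, n = 4) in the tumors and 1.06 ± 0.09 (SD, n = 2) in the normal glands. The difference was −1.67 (SE 0.63), with an adjusted p of 0.175 in limma, which draws the small spread of this probe toward that of all probes. The methods' t-test, which the study used on signals and not on this ratio, and which takes the spread of the probe alone, gave 1.57e-05, and 0.0136 after Benjamini-Hochberg adjustment over the same 1728 probes. It called 5 of them. The exact permutation test gave p = 0.0667. Here the tumors lay below both normal glands, as was the case at 14.8% of all probes tested. When any 1 array was left out, the difference stayed between −1.73 and −1.61, with adjusted p-values in limma from 0.146 to 0.706, and with the replicate block its adjusted p was 0.470. For antisense probe 2 the difference was 1.76 (SE 0.65), with an adjusted p of 0.166 in limma, and for antisense probe 1 it was −0.09 (SE 0.64). The values of the 3 probes sum to 0 by construction, so that of antisense probe 2 is no separate result.

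**Figure D4:**
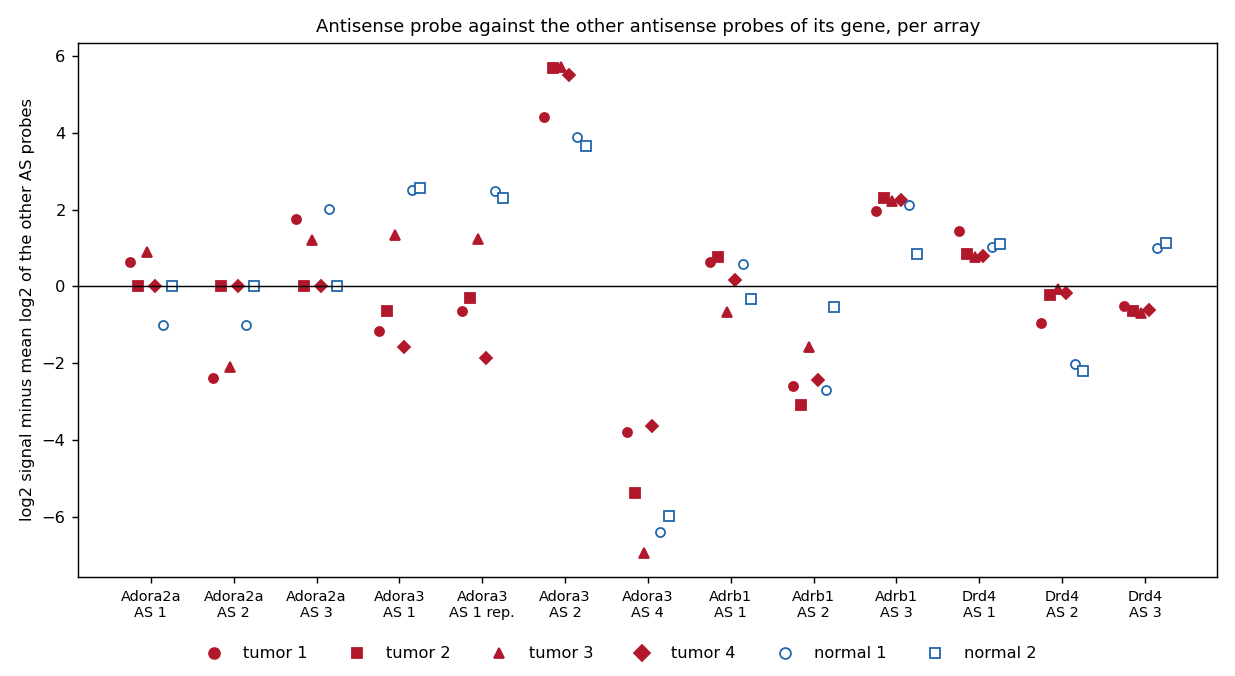
Log2 signal of each of the 13 receptor antisense probes minus the mean log2 signal of the other antisense probes of the same gene, on each array; filled red symbols are tumors and open blue symbols normal glands. At Drd4 antisense 3 the tumors lay between −0.68 and −0.51 and the normal glands at 1.00 and 1.12, and at Adora3 antisense 1 tumor 3 lay between the other tumors and the normal glands.

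The probes of Adrb1, the beta 1 adrenergic receptor, were of moderate brightness and overlapped between tumors and normal glands on both strands. Antisense probe 3 read 494, 262, 227 and 378 in the tumors and 253 and 202 in the normal glands. Its log2 difference was 0.52 (SE 0.47), close to the median of all antisense probes, and its 95% interval ran from −0.60 to 1.65. Antisense probe 1 read 269, 128, 59.5 and 143 in the tumors and 126 and 117 in the normal glands, a log2 difference of 0.11 (SE 0.64). Antisense probe 2 read 60.5, 21.6, 39.1 and 43.0 in the tumors and 27.4 and 107 in the normal glands, so the normal glands lay on either side of most tumors. Its log2 difference was −0.49 (SE 0.70), and it turned to 0.49 without normal gland 2. The linked sense probe read 177, 70.1, 91.2 and 248 in the tumors and 68.1 and 102 in the normal glands, a log2 difference of 0.64 (SE 0.62) with an adjusted p of 0.503 in limma. Tumors 1 and 4 were the brightest tumors at the sense probe and at antisense probes 1, 2 and 3. The antisense probes of Adrb1 were rich in G and C, between 66.7% and 68.3%, against a median of 45.0% for all antisense probes. The sequence of antisense probe 3 is given to show this.
Adrb1 antisense 3: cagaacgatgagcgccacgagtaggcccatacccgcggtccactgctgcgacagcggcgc

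Adora2a, an adenosine receptor, gave little signal on either strand. The sense probe read 22.8, 14.5, 10.3 and 28.2 in the tumors and 18.9 in normal gland 1, and was at the floor in normal gland 2. It was well above background on 2 of the 4 tumor arrays. The log2 difference was 0.85 (SE 0.68), near the median of all sense probes, but it depended on the floor and was 0.17 with a floor of 20. It turned to −0.10 without normal gland 2. Antisense probe 1 was above the floor only in tumors 1 and 3, at 34.5 and 20.1, and antisense probe 3 only in those tumors, at 58.3 and 23.0, and in normal gland 1, at 20.1. Antisense probe 2, which reads the site complementary to the sense probe, was above the floor only in tumor 1, at 8.53. Tumor 1 had the fewest values at the floor of all 6 arrays over the whole table, and the part of this in the tumor 1 signals was not tested. The complementary stretches of the sense probe and antisense probe 2, at positions 15 to 44 of both, are given because the strands can be compared there at 1 site.
Adora2a sense: GTTTGAGGACGTAGTACCCATGAATTACAT
Adora2a antisense 2: ATGTAATTCATGGGTACTACGTCCTCAAAC

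Of the complementary sites of the adenosine receptors, the one of Adora3 thus had signal on both strands on every array, and the one of Adora2a had hardly any on the antisense strand.

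The other genes of the same pathways gave 25 sense probes and 131 antisense probes. Of the sense probes 4 rose in the tumors and none fell at an adjusted p of 0.05 in limma, against 14.4% of all sense probes that rose, and their median log2 difference was 1.30. None of the 4 passed without tumor 1, without tumor 4 or without either normal gland, nor with 1 fit over both strands, the replicate block or the methods' t-test after adjustment. No sense probe of the whole array passed in limma without tumor 4, without normal gland 2 or with the replicate block, which holds for every sense call given here. Among the serotonin receptors, the closest relatives of Adrb1 and Drd4 on the array, Htr2b rose by 3.07 (SE 0.75) and Htr7 by 2.19 (SE 0.47), both from the floor in the normal glands, so these sizes depend on the floor. The sense probes of Htr2b and Htr2c were linked by place only. Htr2b read 121, 38.9, 16.5 and 40.0 in the tumors, and Htr7 29.1, 30.8, 19.6 and 15.5. Htr2c read 39.0, 17.3, 26.8 and 9.94 in the tumors and 77.0 and 55.3 in the normal glands, a log2 difference of −1.66 (SE 0.62) with an adjusted p of 0.0960.

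Of 8 genes whose transcription responds to cyclic AMP, and also to many other stimuli, Fos and Atf3 rose in the tumors, where 14.4% of all sense probes rose. Fos, an immediate early transcription factor, read 2880, 871, 1130 and 2922 in the tumors and 160 and 109 in the normal glands, a log2 difference of 3.68 (SE 0.65) with an adjusted p of 0.0215 in limma. Atf3, a stress-induced transcription factor, differed by 2.61 (SE 0.62), with an adjusted p of 0.0378. Egr1, linked by place only, and Nr4a1 differed by 2.82 and 1.54, with adjusted p-values of 0.0542 and 0.0686. Fosb, Jun and Ier2 differed by 3.01, 0.80 and 0.29, and Nr4a2 by −0.72, with adjusted p-values of 0.0694, 0.440, 0.715 and 0.491. Among the other G protein-coupled receptors none of the 10 sense probes passed. The nearest were Fzd3, a Wnt receptor, at 1.29 (SE 0.41) with an adjusted p of 0.0657, and Cnr2, the cannabinoid receptor of immune cells, at 2.17 (SE 0.70) with an adjusted p of 0.0672. Cnr2 was at the floor in normal gland 2, so the size of its difference depends on the floor. For Gnb2, a G protein beta subunit, the sense difference was 1.53 (SE 0.56), with an adjusted p of 0.0905, and for Prkar1b, a regulatory subunit of protein kinase A, it was 1.30 (SE 0.61), with an adjusted p of 0.161. Dpp4, a peptidase of the cell surface whose sense probe was linked by place only, differed by 0.23 (SE 0.56). No antisense probe of these lists passed in limma, where 22 were higher and 5 lower at an unadjusted p of 0.05, against 13.0% and 3.26% of all antisense probes. The methods' t-test on log2 signals called 20 of them unadjusted, where it called 211 of the 1749 antisense probes, and none after adjustment. Their median log2 difference was 0.45, against 0.44 for all antisense probes.

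**Figure D5:**
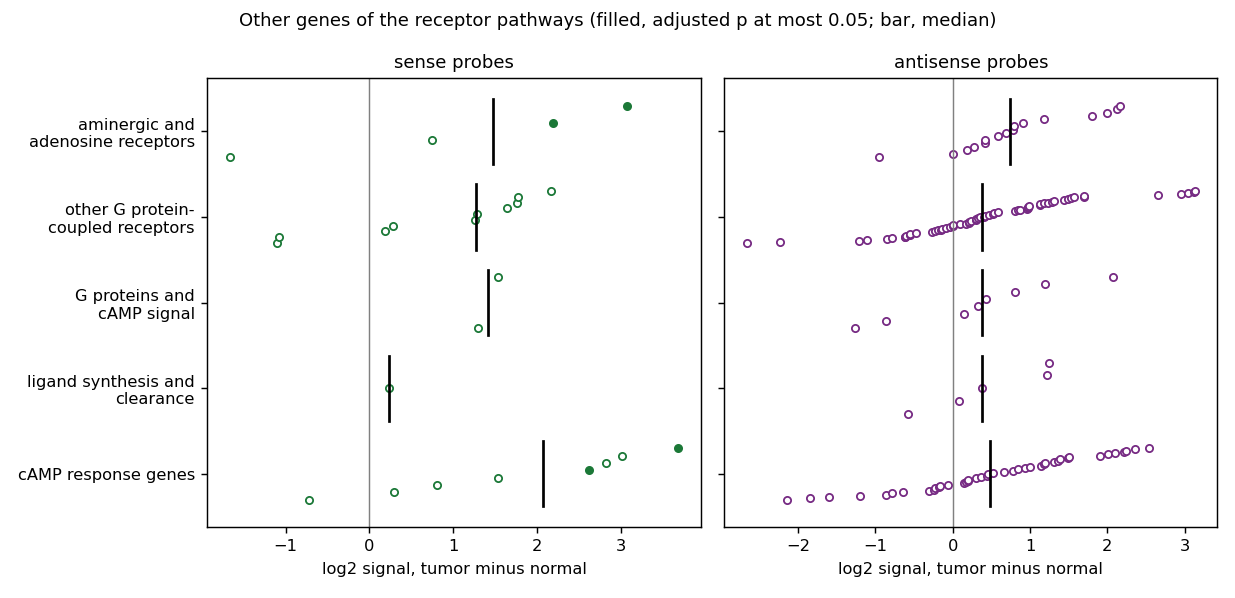
Log2 difference between tumors and normal glands for each sense probe (left) and antisense probe (right) of 5 lists of genes around the receptors; each point is a probe, filled where its adjusted p was at most 0.05, and black bars are list medians. The 4 filled points are Htr2b, Htr7, Fos and Atf3 on the sense strand, and no antisense point is filled.

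In whole tissue, fewer cells of a type and less RNA per cell cannot be told apart. Of 6 mammary epithelial sense probes 2 rose, Krt18 by 3.33 (SE 0.56) and Gata3 by 2.55 (SE 0.70), with adjusted p-values of 0.0207 and 0.0483 in limma, where 14.4% of all sense probes rose. The sense probe of Krt18 was linked by place only, as were those of Flt1, Pdgfra and Vim. Krt19 and Prlr were higher by 2.31 and 3.54 and did not pass, Krt14 differed by 0.08, and Esr1 by −1.35, with adjusted p-values of 0.1002, 0.0566, 0.942 and 0.340. The summed signal of the list was 42885, 35055, 33828 and 134926 in tumors 1 to 4 and 14075 and 13012 in the normal glands, with Krt18 the brightest in the tumor mean. None of the 6 was at the floor on any array. Of 5 leukocyte sense probes none passed in limma, and 1 of them, Csf1r, was higher at an unadjusted p of 0.05, which 38.4% of all sense probes met in either direction. Their summed signal was 28564, 39568, 11668 and 16346 in the tumors and 11634 and 7076 in the normal glands, with Cd4 the brightest. Neither the 4 endothelial nor the 3 fibroblast sense probes passed, with median log2 differences of 0.28 and 0.79, and among them only Pdgfra was at the floor, in normal gland 2. The median was 2.43 for the epithelial and 1.41 for the leukocyte sense probes, against 0.91 for all sense probes. The summed endothelial signal was 3723, 5260, 3301 and 5748 in the tumors and 3971 and 3052 in the normal glands, with Flt1 the brightest, and the summed fibroblast signal was 872, 923, 491 and 1098 against 874 and 535, with Vim the brightest. No adipocyte or neural marker of the lists was among the tied probes. The part of these cell types in the receptor signals was not tested.

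As a description over 6 arrays, the sense probes most like Adora3 sense among 350 without a floor value were Myo6 and Pdcd6, both with a Pearson r of 0.990 of log2 signals, and Zfp36, with 0.985. For Drd4 sense they were Tie1 with 0.973, Inha with 0.961 and Il6ra with 0.951, and for Drd4 antisense 3 they were Selplg with 0.978, Pold1 with 0.962 and Tnfrsf8 with 0.953. For Adora3 antisense 1 the likeness was lower, at 0.902 with Dlk1, 0.886 with Nr4a2 and 0.863 with Serpinh1. For Adrb1 sense they were Nos2 with 0.909, Gpr19 with 0.873 and Jun with 0.867. All these probes share the same 6 arrays, tissue groups and scaling.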

How the data were processed

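Total RNA from GRS/A tumors (4 arrays) and normal glands (2 arrays) was hybridised in 1 color. The authors took the processed signal of Agilent Feature Extraction (9.1.3.1 per the file headers), set values below 5 or not significantly above background to 5, and scaled each array by its mean. These deposited intensities were used as given, on the log2 scale. Strand, gene and sequence are other columns of the deposited scanner files of the tumors, which were tied to the table through the 4 tumor signals. Of 2156 entries 2153 were tied, and 3 were not used. Gene names, positions and promoter windows came from RefSeq tables of GRCm38.p6.

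The groups were tested in R 4.3.3 with lmFit and eBayes of limma 3.58.1 at an adjusted p of 0.05 within each strand, and single probes with an exact permutation test over 15 splits. Strand and within-gene tests used log2 ratios per array. The limma step was also run on simulated log2 signals with no floor and with changes in both directions. These differ from the signals here, so the run checks the code and not the calls. Python 3.11.15, numpy 2.4.6, pandas 2.3.3 and matplotlib 3.10.9 made the tables and figures. The number of arrays limits the precision.

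The 4 genes and all lists were chosen with earlier results of these data known. All probes of the 4 genes are named, with up to 4 genes of each pathway list and 3 of each marker list by smallest p, and the 3 sense probes most like a receptor probe. Not every gene this rule gives is printed. As alternatives the scaling was replaced by 4 others, the floor was raised to 20, probes were kept if they read 100 or more on 2 arrays, and limma was run with trend, with 1 fit over both strands, with the replicate number as a block and without each array. The fit with a block compared only tumors 1 and 2 with normal glands 1 and 2, as no normal gland had number 3 or 4. The methods' t-test was run too. Averaging spots of 1 sequence was chosen after seeing the data. Tumors 3 and 4 shared a slide, and the scanner files of normal arrays were not used here.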

Additional observations from a re-analysis of the deposited data

Results flagged for a closer look

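Among the 17 receptor probes, 3 had a tumor that stood far from the other tumors, measured as the gap to the nearest tumor divided by the range of the 4 tumors on the log2 scale; chance gives such a gap in about 1 of 20 groups. Adora3 antisense 1 was bright in tumor 3, with a gap of 0.894 of the range, whereas the second spot of the same sequence had a gap of 0.606, too small to stand out, and Drd4 antisense 2 was bright in tumor 2, with a gap of 0.908. Adora2a antisense 2 was above the floor in tumor 1 alone, which gives a gap of 1.0 by construction.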

How the results depend on the processing

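Over all probes the median log2 difference was 0.50 as deposited, 0.10 with 75th percentile scaling, 0.23 with median scaling, 0.52 with scaling to the same mean and −0.05 with quantile normalization. Receptor sense probes past the threshold were 0, but 1 of 4 (Adora3) with a floor of 20 and with the methods' t-test unadjusted on linear or on log2 signals, which called 66, 64 and 122 of all 404 sense probes. Receptor antisense probes past the threshold were 0, and 1 (Drd4 antisense 3) with that test on linear signals, which called 159 of 1749. Receptor antisense probes whose change differed from the sense change were 0, and 2, the spots of Adora3 antisense 1, with the filter on signals, with the methods' t-test unadjusted on log2 signals and with the replicate block, which called 96 of 748, 301 of 1585 and 114 of 1585 probes. With each array left out in turn they were between 0 and 2, where 0 to 150 of 1585 probes passed. Those whose change differed from the gene's other antisense probes were 0, and 5 with the methods' t-test on log2 signals unadjusted and 1 adjusted, which called 256 and 5 of 1728. The 5 were both spots of Adora3 antisense 1, Adora3 antisense 2, and Drd4 antisense 2 and 3. They are not separate results, since the spots share 1 sequence and the probes of a gene are set against one another. With a tumor left out the count was between 0 and 1, where 0 to 79 of 1728 passed.

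Sense probes of the signaling lists past the threshold were 4, against 2 with 75th percentile scaling, 7 with the same mean, 8 with the methods' t-test on log2 signals unadjusted, and 0 with that test adjusted on linear or on log2 signals, with 1 fit over both strands and with the replicate block. Over all 404 sense probes 59 passed, against 23, 84 and 122 in the fits that gave 2, 7 and 8. With an array left out, where 0 to 89 of all 404 passed, they were between 0 and 4, and 0 without tumor 1, without tumor 4, without normal gland 1 or without normal gland 2. Their antisense probes were 0, but 17 on linear and 20 on log2 signals with the methods' t-test unadjusted, which called 159 and 211 of 1749.

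Replicate numbers are shared by the groups for 2 pairs, whose deviations from their group mean correlated at −0.02 and 0.05. The deviations of 2 normal glands mirror each other, so these values cannot tell whether a pair came from 1 animal. The replicate block compared only tumors 1 and 2 with the normal glands. It called 0 of 404 sense probes and 114 of 1585 strand differences. Log2 differences that changed sign belonged to probes that passed in no fit. They were, with quantile normalization, −0.045 for Adora2a sense, −0.60 and −0.16 for Adora2a antisense 2 and 3, −0.19 for Adora3 antisense 4 and −0.15 for Adrb1 antisense 1. With 75th percentile scaling they were −0.21 for Adora2a antisense 2 and −0.29 for Adrb1 antisense 1, and with median scaling −0.074 and −0.16. With the replicate block, which rests on tumors 1 and 2 and the normal glands, they were 0.13 for Drd4 sense and 0.020 for Drd4 antisense 1. With each array left out the difference ranged from −0.10 to 1.81 for Adora2a sense, −0.92 to 0.023 for Drd4 sense, −0.57 to 1.44 for Adora2a antisense 3, −1.47 to 0.49 for Adrb1 antisense 2 and −0.24 to 0.49 for Adrb1 antisense 1. Adora3 sense stayed between 0.93 and 1.56 and Drd4 antisense 3 between −2.18 and −1.13 over all settings. The cause of these changes was not tested. The signal filter left no value for the dim probes.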
